A study of Mus musculus with 6 samples.

Results

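RNA from Clu-marked prostate epithelial cells was set against RNA from Nkx-marked prostate epithelial cells, both from intact male mice. The comparison rests on 4 of the 6 libraries of the study, 2 labelled Clu-positive and intact and 2 labelled Nkx-positive and intact, chosen by their labels alone. They are named here Clu intact 1 and 2 and Nkx intact 1 and 2. The Clu cells came from Clu-CreER(T2) mice crossed to a strain with the Gt(ROSA)26Sortm14(CAG-tdTomato)Hze reporter, which turns cells red after recombination. The Nkx cells came from the CreER(T2) line labelled Nkx, crossed to a strain with the Gt(ROSA)26Sortm1(EYFP)Cos reporter, which turns them yellow. All animals carried an inducible recombinase and a reporter in the ROSA26 locus. The labels put the mice at 7 to 13 weeks of age, with the intact or castrated arms set at 8 weeks and tissue taken 4 weeks later. Marker-positive cells were sorted from digested tissue and lysed, and libraries were made with a stranded low-input kit from 2 ng of total RNA. The remaining 2 libraries, of castrated Nkx males, are outside the contrast. They entered the choice of genes tested, the scaling and the estimate of the spread. Population, driver gene, mouse line and reporter colour change together between the groups and cannot be told apart. The labels give neither the time of induction nor the sorting gate nor the lobe, and they do not state from how many animals each group was drawn, so the p-values describe variation among libraries that may be technical.

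The mouse prostate is a branched gland whose ducts run from the urethra to secreting tips. Its luminal cells differ along that axis. Distal luminal cells make the proteins of prostatic fluid under control of androgen, while proximal luminal cells near the urethra carry surface and keratin genes such as Psca and Krt4 and tolerate loss of androgen better. Basal cells with Trp63 and Krt5 lie beneath both. Clusterin, the product of Clu, is a secreted chaperone found in stressed and in proximal epithelium. According to the series' own text, the bulk profiles served to tie each traced lineage to a transcriptome.

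Between 10220118 and 11418079 counts per library were assigned to genes, so depth was nearly equal in the groups. Levels below are CPM, counts per 1000000 counts of the library after TMM scaling, where 1 count was worth 0.0844 to 0.0988 CPM. Levels of different genes are not compared, because CPM does not correct for length. Across genes the log2(CPM + 1) values of the Clu intact libraries correlated at r = 0.981 and those of the Nkx intact libraries at r = 0.975, over genes that are not independent. RNA composition differed with the group. The 18S ribosomal RNA Rn18s took 2.25% and 2.91% of counts in Clu intact and 5.34% and 5.22% in Nkx intact, and the mitochondrial ribosomal RNAs took 8.57% and 8.50% against 5.29% and 5.72%. A fit without these RNAs is among the alternatives given at the end. Beyond that, whether the difference in composition had a part in any gene's result was not tested.

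A gene is called here when edgeR's quasi-likelihood test gave a Benjamini-Hochberg adjusted p under 0.05 over the 13846 genes tested. Of these, 1563 were called (11.3%), 871 of them higher in Clu intact (6.29%) and 692 lower (5.0%). The last 2 shares are the background for every gene list below. At least 2-fold changes were seen in 738 genes that were higher and 567 that were lower, and at least 16-fold changes in 166 and 35. These are fitted folds, and they include genes without a count in a group, whose fold is no measured ratio. The median log2 fold change of all genes tested was -0.01, a value that TMM scaling draws to the centre by design. Every called gene had both Clu libraries on the same side of both Nkx libraries. That separation is common here without a call, since 4419 tested genes lay wholly above and 4338 wholly below. The Nkx castrate libraries are outside the contrast, yet the number called depends on them. They enter the choice of genes tested, the scaling and the spread. With Nkx castrate 1 dropped 1790 genes were higher and 1561 lower, and with Nkx castrate 2 dropped 1728 and 1525. The plot of all genes shows that the large upward changes outnumber the large downward ones.

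**Figure D1:**
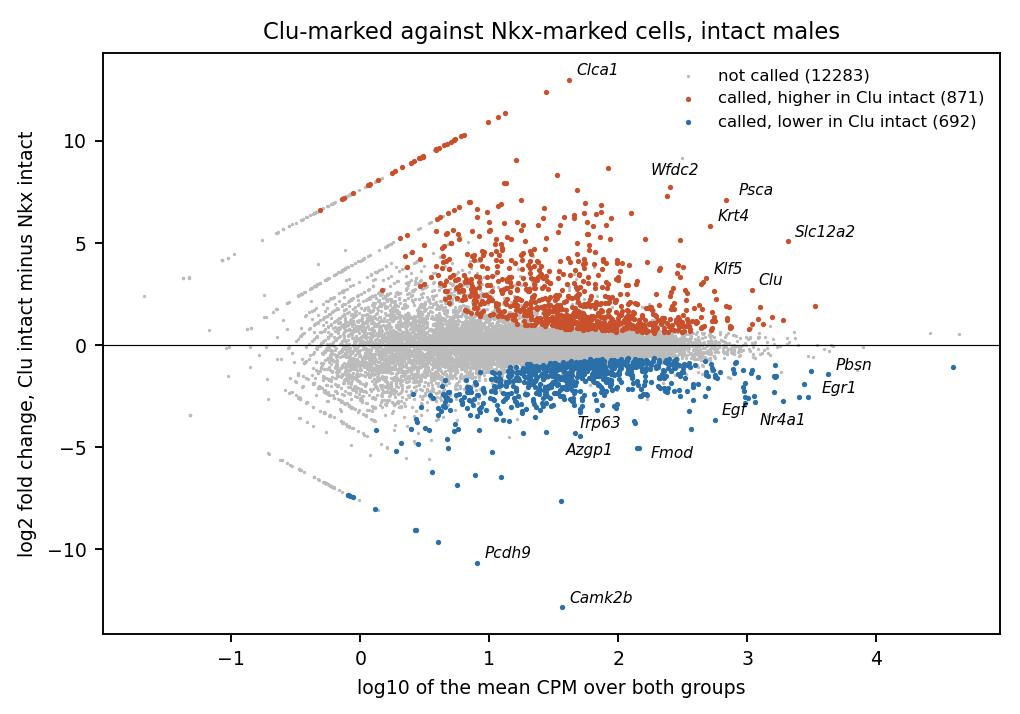
Each point is 1 of the 13846 genes tested, by log10 of its mean CPM over the 4 libraries (horizontal) and its log2 fold change, Clu intact minus Nkx intact (vertical). Grey points were not called, red points are the 871 genes called higher and blue points the 692 called lower. The straight upper and lower edges are genes without a count in a group, whose fitted fold change is no measured ratio.

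Clu, the gene that drives the recombinase in the Clu line, is the check of that label. It stood at 1808 and 1934 CPM in the Clu intact libraries and 323 and 245 CPM in the Nkx intact libraries. Both Clu libraries lay above both Nkx libraries and the libraries of a group were close to each other. The gene was 6.58-fold higher (log2 fold change 2.72, SE 0.21, adjusted p = 0.000512). It was thus present in the Nkx-marked cells as well, at a lower level.

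Most proximal luminal markers were higher in the Clu-marked cells. Of 36 markers, all tested, 23 were higher in Clu intact and 2 were lower, with a median log2 fold change of 2.33. Over all genes 6.29% were higher and 5.0% lower, with a median of -0.01. Clu itself, the driver gene given above, is on this list and among the 23. Psca, a lipid-anchored surface protein, had 1344 and 1385 CPM in the Clu intact libraries and 8.99 and 10.5 CPM in the Nkx intact libraries. Krt4, a keratin of wet stratified epithelia, had 899 and 1123 CPM in Clu intact and 13.9 and 21.7 CPM in Nkx intact. Both were scarce in each Nkx library and abundant in each Clu library, 140.1-fold (log2 fold change 7.13, SE 0.65, adjusted p = 0.000834) and 56.8-fold higher (log2 fold change 5.83, SE 0.31, adjusted p = 0.000199). Wfdc2, a secreted protein of the whey acidic protease inhibitor family, had 476 and 523 CPM in Clu intact and 2.49 and 2.17 CPM in Nkx intact. It had the narrowest spread of these large changes (213-fold, log2 fold change 7.74, SE 0.24, adjusted p = 1.73e-05). Ppp1r1b, an inhibitor of protein phosphatase that is regulated by cyclic AMP, had 418 and 537 CPM in Clu intact and 2.77 and 3.16 CPM in Nkx intact and was 161-fold higher. The mucosal chemokine Cxcl17 had 27.2 and 25.02 CPM in Clu intact and 0.191 and 0 CPM in Nkx intact, the Nkx value being 2 counts in all, and the ratio was 269 (95% counting interval 74.2 to 2227). For Cxcl17 the fold was at least 88.3 with Nkx intact 1 dropped and a ratio of 137 (interval 37.7 to 1131) with Nkx intact 2 dropped.

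Other members of the proximal list were higher to varied degrees. Of all 36 members, 31 had a positive and 5 a negative log2 fold change. The 2 called lower are not reported here. Klf5, a zinc finger factor of epithelial growth and barrier, had 872 and 863 CPM in the Clu intact libraries and 92.97 and 86.5 CPM in the Nkx intact libraries (9.67-fold). Krt7, a keratin of ducts, was 14.3-fold and Gsta4, a glutathione transferase for lipid aldehydes, 37.1-fold higher. The claudin Cldn10, which forms ion-selective pores between cells, was 56.2-fold higher. Krt19, another keratin of simple and ductal epithelia, had 1794 and 2164 CPM in Clu intact and 487 and 603 CPM in Nkx intact, a difference of 3.63-fold. Pigr, the carrier of polymeric antibodies, had 277 and 610.01 CPM in Clu intact and 62.2 and 82.6 CPM in Nkx intact, with Clu intact 2 well above Clu intact 1. Gprc5a and Sox9 were not called, with adjusted p of 0.0677 and 0.0921. With each library left out in turn, between 16 and 27 proximal markers were higher. Proximal markers called lower numbered 1 with Clu intact 1 or either Nkx intact library dropped. With 1 library left out, the calls lost were those on Krt19 and Pigr (without Nkx intact 1 or 2), with adjusted p from 0.0531 to 0.0825. Without 1 library the fold moved by over 1.5 times for Pigr (log2 fold change 1.95 without Clu intact 2, against 2.61). Newly called were Gprc5a and Sox9 (with either Nkx castrate library dropped), with adjusted p from 0.000477 to 0.00169.

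**Figure D2:**
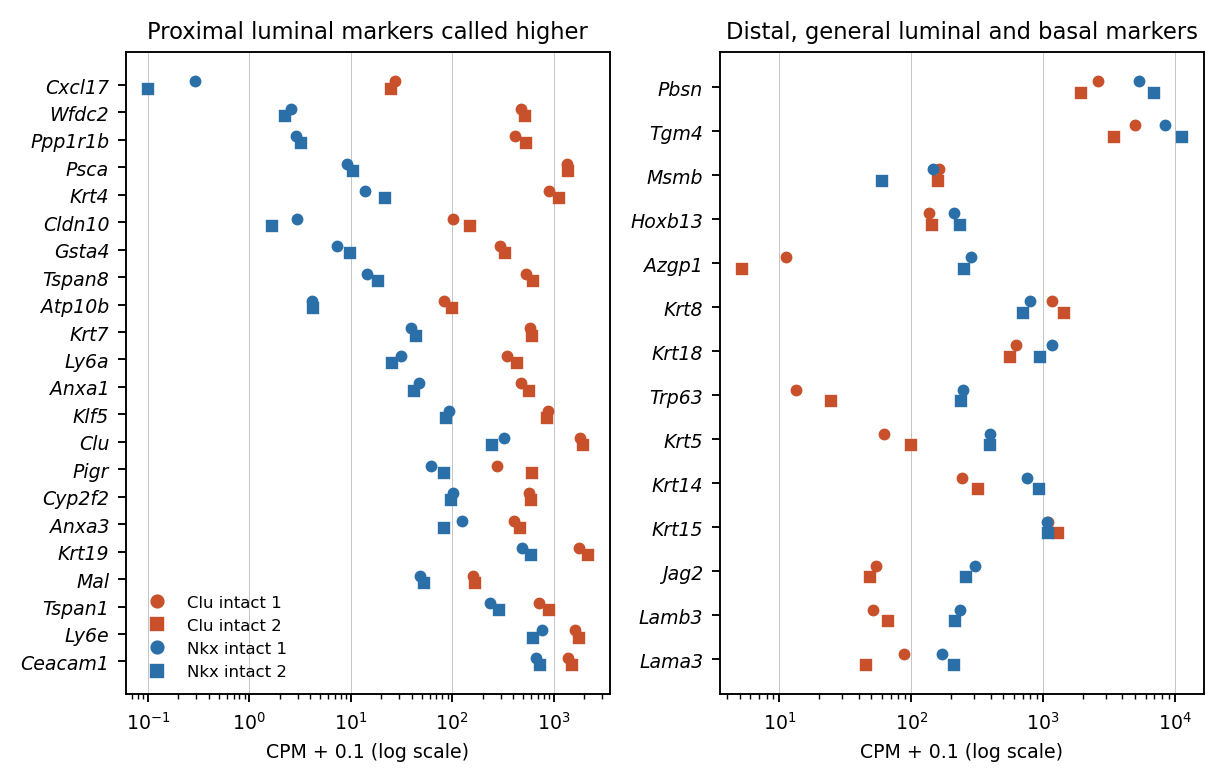
CPM + 0.1 on a log axis in each of the 4 libraries (red Clu intact, blue Nkx intact; circles replicate 1, squares replicate 2). The left panel holds proximal luminal markers called higher, ordered by log2 fold change, and the right panel distal, general luminal and basal markers. Proximal markers part widely at the top and much less at the bottom, and on the right Azgp1 and Trp63 part most.

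Distal secretory genes were not uniformly low in the Clu-marked cells. Of the 31 markers tested, 6 were higher and 6 lower, with a median log2 fold change of -0.39. Pbsn, the androgen-dependent secretory lipocalin probasin, had 2634 and 1957 CPM in the Clu intact libraries and 5393 and 6937 CPM in the Nkx intact libraries, 2.69-fold lower (log2 fold change -1.43, SE 0.23, adjusted p = 0.00748). Tgm4, the transglutaminase that clots seminal fluid, had 5023 and 3482 CPM in Clu intact and 8396 and 11255 CPM in Nkx intact and was not called (log2 fold change -1.21, SE 0.34, adjusted p = 0.0617). Both Clu libraries were below both Nkx libraries for each gene, yet both genes stayed abundant. Azgp1, a secreted zinc-binding glycoprotein, fell further, with 11.1 and 5.08 CPM in Clu intact and 286 and 252 CPM in Nkx intact, 32.95-fold lower (log2 fold change -5.04, SE 0.38, adjusted p = 0.000456). Hoxb13, a homeobox gene of the prostate, had 137 and 144 CPM in Clu intact and 209.6 and 236 CPM in Nkx intact and was not called (adjusted p = 0.173). Msmb, a secreted protein of prostatic fluid, was not called either, and its Nkx libraries differed from each other more than the groups did (145 and 60.1 CPM against 163 and 159.5 CPM in Clu intact). Secretory genes that were higher included Abo, a blood group glycosyltransferase (63.02 and 65.4 CPM in Clu intact and 6.79 and 3.56 CPM in Nkx intact), and the spermine-binding proteins Sbp and Sbpl. Sbp had 54.8 and 276 CPM in Clu intact and 0.383 and 0.395 CPM in Nkx intact, and Sbpl had 14.5 and 95.9 CPM in Clu intact and no count in Nkx intact, at least 364-fold higher against a floor of 3 counts over the 2 libraries. Clu intact 2 held several times the Sbp and Sbpl of Clu intact 1, and the near-identical sequences of these genes leave their counts uncertain. Secretory markers called higher numbered 1 with either Nkx intact library dropped and 3 with Clu intact 2 dropped, and those called lower 1 with Clu intact 2 or Nkx intact 2 dropped, 2 with Clu intact 1 or Nkx intact 1 dropped and 12 with either Nkx castrate library dropped. Calls that were lost without 1 library were those on Pbsn (without Clu intact 2 or Nkx intact 2) and Sbp and Sbpl (without Clu intact 2 or either Nkx intact library), with adjusted p from 0.0651 to 0.191. Limma-voom did not call Sbp or Sbpl. A library left out shifted the fold by over 1.5 times for Azgp1 and Sbp. The log2 fold change of Azgp1 was -5.71 without Clu intact 1, against -5.04. That of Sbp was 9.45 without Clu intact 1 and 7.12 without Clu intact 2, against 8.7. For Sbpl the fold was at least 658 with Clu intact 1 dropped and at least 99.5 with Clu intact 2 dropped. Dropping a library added the call on Tgm4 and Hoxb13 (with either Nkx castrate library dropped), with adjusted p from 0.000292 to 0.00609.

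Genes of androgen response moved in both directions in about equal number. Of 48 tested, 9 were higher and 10 lower, around a median of 0.01. Fkbp5, a co-chaperone of steroid receptors and a common reporter of receptor activity, had 432 and 764 CPM in the Clu intact libraries and 193 and 143 CPM in the Nkx intact libraries, 3.56-fold higher. Abcc4, an exporter of organic anions and cyclic nucleotides, had 151 and 179 CPM in Clu intact and 39.2 and 47.8 CPM in Nkx intact, 3.79-fold higher (log2 fold change 1.92, SE 0.20, adjusted p = 0.00136). Srf, a transcription factor of actin and growth factor signalling, had 91.6 and 93.9 CPM in Clu intact and 447 and 447 CPM in Nkx intact, 4.82-fold lower (log2 fold change -2.27, SE 0.18, adjusted p = 0.000512), and Maf, a bZIP factor, was 6.11-fold lower. Among 20 lineage genes and hormone receptors, 3 were higher and 3 lower. The prolactin receptor gene Prlr had 169 and 198 CPM in Clu intact and 317 and 381 CPM in Nkx intact and the vitamin D receptor gene Vdr had 16.6 and 17.1 CPM in Clu intact and 57.6 and 43.9 CPM in Nkx intact, both lower by 1.901-fold and 3.01-fold. Pparg, a nuclear receptor of lipid metabolism and of urothelium, had 11.6 and 9.12 CPM in Clu intact and 0.191 and 0.198 CPM in Nkx intact, 50.6-fold higher. Srd5a1, which makes dihydrotestosterone, was the only called member of 13 steroid metabolism genes (4.896-fold lower, 2.62 and 2.26 against 10.5 and 13.4 CPM). The share of that list called lower was 7.69%, near the 5.0% of all genes. Androgen response genes called higher numbered 1 with either Nkx intact library dropped and 3 with Clu intact 2 dropped, and those called lower 2 with Clu intact 2 dropped and 4 with Clu intact 1 or either Nkx intact library dropped. Lineage and hormone receptor genes called higher numbered 1 with either Nkx intact library dropped and 7 with either Nkx castrate library dropped, and those called lower 0 with Clu intact 1 or either Nkx intact library dropped and 1 with Clu intact 2 dropped. Steroid metabolism genes called higher numbered 2 with either Nkx castrate library dropped, and those called lower 0 whichever of the 4 libraries was left out. Leaving out 1 library ended the calls on Fkbp5 (without Clu intact 2 or either Nkx intact library), Maf (without either Clu intact library or Nkx intact 1), Prlr, Vdr and Srd5a1 (whichever of the 4 libraries was left out) and Pparg (without Nkx intact 1 or 2), with adjusted p from 0.0515 to 0.207.

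Some basal cell genes were lower in the Clu-marked cells. Of 23 basal markers, 0 were higher and 6 lower (median -0.42), and their CPM summed to 7534 and 6962 in Clu intact and 9149 and 9077 in Nkx intact. Trp63, the transcription factor that maintains basal cells, had 13.2 and 24.6 CPM in the Clu intact libraries and 249 and 238 CPM in the Nkx intact libraries, 12.9-fold lower (log2 fold change -3.69, SE 0.38, adjusted p = 0.00127). Krt5 had 61.8 and 99.2 CPM in Clu intact and 399 and 393 CPM in Nkx intact, 4.92-fold lower, and Krt14 243 and 323 CPM in Clu intact and 752 and 933 CPM in Nkx intact, 2.98-fold lower. For all 3 genes the Nkx libraries were the higher ones, and the Nkx-marked RNA therefore held basal marker RNA. Jag2, a Notch ligand, had 54.3 and 48.3 CPM in Clu intact and 303 and 262 CPM in Nkx intact (5.503-fold lower), and Lamb3, a chain of the epithelial laminin that anchors basal cells, was 3.83-fold lower. Krt15 and Plec, which basal cells also use, were not called, with adjusted p of 0.72 and 0.245. In bulk RNA, fewer cells of a type and less RNA of that type per cell cannot be told apart. Basal markers called higher numbered 3 with Nkx castrate 2 dropped and 5 with Nkx castrate 1 dropped, and those called lower 3 with either Nkx intact library dropped and 10 with either Nkx castrate library dropped. Refitting without 1 library ended the calls on Krt5 (without Nkx intact 2), Krt14 (whichever of the 4 libraries was left out) and Lamb3 (without Nkx intact 1), with adjusted p from 0.0501 to 0.236. Scaling to library totals alone did not call Krt14 and the 10 CPM filter did not call Krt14. A call was gained for Plec (with Nkx castrate 1 dropped), with an adjusted p of 0.0472.

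Keratin and junction genes were called in both directions. Of 17 keratin genes, 5 were higher and 4 lower. Krt8 and Krt18, the partner keratins of simple epithelia, moved in opposite directions. Krt8 had 1169 and 1441 CPM in the Clu intact libraries and 792 and 705 CPM in the Nkx intact libraries, 1.74-fold higher, and Krt18 had 621 and 561 CPM in Clu intact and 1168 and 942 CPM in Nkx intact, 1.78-fold lower. Processed copies of both genes leave their counts uncertain. Of 31 junction and adhesion genes, 8 were higher and 3 lower. Epcam, the surface marker of epithelia, had 728 and 839 CPM in Clu intact and 345 and 336 CPM in Nkx intact, and Cdh1, E-cadherin, had 1669 and 1902 CPM in Clu intact and 928 and 810.1 CPM in Nkx intact, so that epithelial identity genes were abundant in all 4 libraries and 2.3-fold and 2.06-fold higher in Clu intact. Tjp3, a scaffold of tight junctions, was 7.71-fold higher (195 and 224 against 21.8 and 32.5 CPM), and Itgb8, an integrin that activates latent TGF-beta, 2.704-fold higher. P-cadherin, Cdh3, which marks basal cells, was 5.17-fold lower (16.3 and 25.6 against 122 and 93.9 CPM), and the claudin Cldn1 6.68-fold lower. Keratins called higher numbered 2 with either Nkx intact library dropped and 3 with either Clu intact library dropped, and those called lower 0 with Nkx intact 2 dropped and 1 with either Clu intact library or Nkx intact 1 dropped. Junction and adhesion genes called higher numbered 3 with Nkx intact 2 dropped and 4 with either Clu intact library or Nkx intact 1 dropped, and those called lower 1 whichever of the 4 libraries was left out. Not called with 1 library fewer were Krt8, Krt18, Epcam, Cdh1 and Cldn1 (whichever of the 4 libraries was left out), with adjusted p from 0.0507 to 0.273.

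Markers of other cells that a prostate digest could hold also differed between the groups. Of 18 endothelial markers, 7 were higher in Clu intact and none lower, with a median log2 fold change of 3.60. Their summed CPM was 1591 and 654 in Clu intact 1 and 2 and 128 and 91.6 in Nkx intact 1 and 2. Pecam1, the platelet and endothelial adhesion molecule, had 214 and 90.2 CPM in the Clu intact libraries and 9.76 and 9.19 CPM in the Nkx intact libraries, and Cdh5, the cadherin of vessel walls, had 213 and 73.5 CPM in Clu intact and 12.1 and 4.35 CPM in Nkx intact. Clu intact 1 held more than Clu intact 2 for each. Vwf, a clotting factor of vessels, and Tek, an angiopoietin receptor, were 16.3-fold and 23.1-fold higher. Endothelial markers called higher numbered 0 with Nkx intact 2 dropped, 1 with Clu intact 1 or Nkx intact 1 dropped and 15 with either Nkx castrate library dropped, and those called lower 1 with either Nkx castrate library dropped. Leukocyte markers called higher numbered 1 with either Nkx castrate library dropped, and those called lower 0 whichever of the 4 libraries was left out, 6 with Nkx castrate 1 dropped and 7 with Nkx castrate 2 dropped. Most leukocyte markers went the other way, with 2 of 17 called lower. Of the 17, 15 had a negative and 2 a positive log2 fold change. Their summed CPM was 86.1 and 86.1 in Clu intact and 182 and 159.5 in Nkx intact. Mrc1 was higher in both Clu libraries (32.5 and 40.4 against 17.3 and 15.9 CPM). Cd14 overlapped between the groups (27 and 20.5 against 30.5 and 17.8 CPM). Neither was called (adjusted p of 0.33 and 0.977), and together they make up most of the sum in Clu intact. The macrophage genes Lyz2 (3.88 and 3.48 against 42.6 and 40.99 CPM) and C1qa (1.01 and 1.88 against 11.1 and 13.04 CPM) were the called ones, while Ptprc, the common leukocyte antigen, was at 3.04 and 2.92 CPM in Clu intact and 4.78 and 6.12 CPM in Nkx intact and not called. Removing 1 library ended the calls on Pecam1, Lyz2 and C1qa (whichever of the 4 libraries was left out) and Cdh5, Vwf and Tek (without Clu intact 1 or either Nkx intact library), with adjusted p from 0.0502 to 0.231. The limma-voom fit did not call Pecam1, Cdh5, Vwf, Tek, Lyz2 or C1qa. Folds that moved over 1.5 times were those of Pecam1, Cdh5, Vwf and Tek. Without Clu intact 1 their log2 fold changes were 3.26, 3.17, 3.4 and 3.54, against 4.0, 4.12, 4.02 and 4.53. Without Clu intact 2 Cdh5 stood at 4.71 and Tek at 5.13, and without Nkx intact 1 Cdh5 stood at 5.05.

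Some seminal vesicle genes were lower in Clu intact. Of the 7 tested, 3 were lower. The summed CPM of all members was 31.2 and 19.6 in Clu intact and 112 and 184 in Nkx intact. Svs4, a seminal vesicle secretory protein, had 0.675 and 0 CPM in the Clu intact libraries and 55.1 and 89.1 CPM in the Nkx intact libraries, 199-fold lower (log2 fold change -7.64, SE 0.79, adjusted p = 0.00135), and its reads can be shared with close copies. Svs5, another, had 2.36 and 0 CPM in Clu intact and 17.8 and 36.3 CPM in Nkx intact and was not called (adjusted p = 0.06), nor was Svs2 (adjusted p = 0.197). Spink8, a protease inhibitor on the same list, had 24.4 and 17.1 CPM in Clu intact and 27.6 and 31.7 CPM in Nkx intact, was not called (adjusted p = 0.567) and makes up most of the sum in Clu intact. None of the 25 fibroblast and smooth muscle markers was called, although 6 were higher and 1 lower at an unadjusted p under 0.05. DESeq2 called 4 of them higher and limma-voom called 0. Col1a1, the collagen of fibroblasts, was at 74.2 and 82.1 CPM in Clu intact and 79.2 and 72.8 CPM in Nkx intact. Neuroendocrine markers summed to 6.16 and 7.81 CPM in Clu intact and 7.94 and 10.1 CPM in Nkx intact, and only 2 were tested. Chga, chromogranin A, was lower in Clu intact (1.43 and 0.564 against 5.55 and 7.9 CPM) and not called (adjusted p = 0.152). Chgb, the other one, was higher (2.02 and 5.83 against 0.191 and 1.19 CPM) and not called either (adjusted p = 0.21). Seminal vesicle genes called lower numbered 1 with Clu intact 2 or either Nkx intact library dropped and 6 with Nkx castrate 1 dropped. Fibroblast and smooth muscle markers called higher numbered 8 with Nkx castrate 1 dropped and 9 with Nkx castrate 2 dropped, and those called lower 2 with either Nkx castrate library dropped. The part of endothelial, leukocyte or seminal vesicle RNA in the other results was not tested. Without 1 library the fold moved by over 1.5 times for Svs4. Its log2 fold change was -6.7 without Clu intact 2, against -7.64. Leaving out Clu intact 1 leaves no Svs4 count in that group and so no fold. Calls were gained for Svs5 (with Clu intact 1 or either Nkx castrate library dropped), Svs2 (with Nkx castrate 1 dropped) and Chga (with either Nkx castrate library dropped), with adjusted p from 0.00131 to 0.0465.

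**Figure D3:**
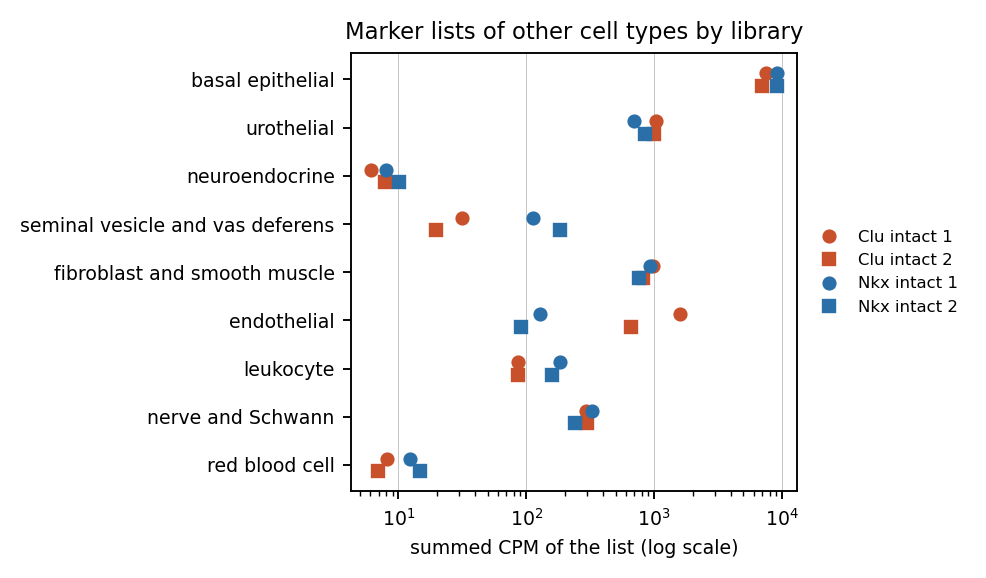
Summed CPM, on a log axis, of the marker lists of other cell types in each of the 4 libraries (red Clu intact, blue Nkx intact; circles replicate 1, squares replicate 2). Endothelial markers are higher in both Clu libraries and highest in Clu intact 1, and seminal vesicle and leukocyte markers are higher in both Nkx libraries.

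Some urothelial markers were higher in the Clu-marked cells. Of 13 tested, 6 were higher and none lower. Upk1a, a uroplakin of the bladder surface, had 127 and 163 CPM in the Clu intact libraries and 13.7 and 19.8 CPM in the Nkx intact libraries, 8.67-fold higher, and Upk2 had 20.6 and 23.5 CPM in Clu intact and 0.383 and 0.79 CPM in Nkx intact. Upk3a, a defining gene of mature urothelium, was at 0.337 and 0 CPM in Clu intact and 0.574 and 0 CPM in Nkx intact, 4 and 6 counts in all, and was not called. The epidermal factor Grhl3 was 8.42-fold higher, and Upk1b 1.701-fold. Gata3, shared by urothelium and luminal prostate, was not called (adjusted p = 0.34). Urothelial markers called higher numbered 1 with either Nkx intact library dropped and 3 with Clu intact 2 dropped. With 1 library left out, the calls lost were those on Upk1a (without Nkx intact 1), Upk2 (without Nkx intact 1 or 2) and Grhl3 and Upk1b (whichever of the 4 libraries was left out), with adjusted p from 0.0513 to 0.275. A library left out shifted the fold by over 1.5 times for Upk2 (log2 fold change 5.82 without Nkx intact 2, against 5.21).

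Transcription factors were called in both directions. Of 60 luminal and epithelial factors, 9 were higher and 12 lower, against the background of 6.29% and 5.0%. Barx2, a homeobox factor of glandular epithelium, had 102 and 111 CPM in the Clu intact libraries and 2.01 and 0.395 CPM in the Nkx intact libraries, 87.3-fold higher (log2 fold change 6.45, SE 0.54, adjusted p = 0.000654). Tfcp2l1, a grainyhead-like factor of ducts and tubules, had 341 and 429 CPM in Clu intact and 36.3 and 24.4 CPM in Nkx intact, 12.7-fold higher (log2 fold change 3.66, SE 0.27, adjusted p = 0.000424). Runx2, a Runt factor, was 8.34-fold higher (56.9 and 47.8 against 6.696 and 5.83 CPM). These factors were scarcer in each Nkx library than in either Clu library. Etv4, an ETS factor induced by growth factor signalling, had 1.86 and 1.88 CPM in Clu intact and 22 and 25.7 CPM in Nkx intact, 12.7-fold lower. Ehf and Tbx3 were not called, with adjusted p of 0.0713 and 0.108. Luminal and epithelial factors called higher numbered 5 with either Nkx intact library dropped, 17 with Nkx castrate 2 dropped and 18 with Nkx castrate 1 dropped, and those called lower 2 with Clu intact 2 or Nkx intact 1 dropped, 3 with Clu intact 1 or Nkx intact 2 dropped and 20 with either Nkx castrate library dropped. The fold moved over 1.5 times for Barx2 (log2 fold change 8.05 without Nkx intact 1 and 5.72 without Nkx intact 2, against 6.45). Newly called were Ehf and Tbx3 (with either Nkx castrate library dropped), with adjusted p from 0.00317 to 0.00645.

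Among 29 genes that pattern the urogenital tract, 7 were higher and 5 lower. Osr1, a zinc finger gene of the early kidney and urogenital mesoderm, had 87.7 and 141 CPM in the Clu intact libraries and 5.17 and 3.75 CPM in the Nkx intact libraries, 25.6-fold higher (log2 fold change 4.68, SE 0.42, adjusted p = 0.000805). Eya2, a transcriptional coactivator with phosphatase activity, was 8.32-fold higher (53.5 and 51.3 against 8.99 and 3.56 CPM). Shh, the hedgehog ligand that buds the prostate from the urogenital sinus, had 11.7 and 9.69 CPM in Clu intact and 49.5 and 42.4 CPM in Nkx intact, 4.29-fold lower (log2 fold change -2.10, SE 0.26, adjusted p = 0.0027), and its effector Gli3 was 5.05-fold lower. Bmp7, a ligand that limits branching, had 40.8 and 39.3 CPM in Clu intact and 126 and 131 CPM in Nkx intact, 3.21-fold lower. Of 25 Hox genes, 2 were higher and none lower, near the background of all genes, among them Hoxa13 (39.99 and 45.7 against 13.3 and 14.03 CPM), a gene of the most posterior body axis. Hoxd13 was not called and its libraries lay close together (94.8 and 102 against 106 and 112 CPM). Patterning genes called higher numbered 2 with either Nkx intact library dropped and 3 with either Clu intact library dropped, and those called lower 2 with Clu intact 2 or either Nkx intact library dropped and 3 with Clu intact 1 dropped. Hox genes called higher numbered 0 with Clu intact 2 or either Nkx intact library dropped, 1 with Clu intact 1 dropped and 4 with either Nkx castrate library dropped, and those called lower 2 with either Nkx castrate library dropped. Calls that were lost without 1 library were those on Gli3 (whichever of the 4 libraries was left out) and Hoxa13 (without Clu intact 2 or either Nkx intact library), with adjusted p from 0.0531 to 0.109. Without 1 library the fold moved by over 1.5 times for Eya2 (log2 fold change 3.89 without Nkx intact 1, against 3.06).

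Genes of salt and water transport were higher more often than lower in the Clu-marked cells. Of 49 tested, 18 were higher and 2 lower (median 1.10). The 2 lower are not reported here, and 13 of the 49 had a negative log2 fold change. The CPM of the list summed to 11270 and 12230 in Clu intact and 4225 and 3877 in Nkx intact. Slc12a2, the basolateral cotransporter that loads chloride into secreting cells, had 3853 and 4100.3 CPM in the Clu intact libraries and 127 and 108 CPM in the Nkx intact libraries, 33.9-fold higher (log2 fold change 5.08, SE 0.41, adjusted p = 0.000579). Ano1, the calcium-activated chloride channel, had 842 and 1068 CPM in Clu intact and 155 and 151 CPM in Nkx intact, 6.24-fold higher (log2 fold change 2.64, SE 0.19, adjusted p = 0.000424). In both genes the libraries of a group agreed closely and the groups did not overlap. Clca1, a secreted protein that raises Ano1 activity, had 87.8 and 77.4 CPM in Clu intact and no count in Nkx intact, at least 569-fold higher. The water channel gene Aqp5 had 207 and 291 CPM in Clu intact and 4.78 and 0.79 CPM in Nkx intact, 88.5-fold higher. Leaving out 1 library ended the call on Aqp5 (without Nkx intact 2), with an adjusted p of 0.0617. A library left out shifted the log2 fold change beyond 1.5-fold for Aqp5 (8.29 without Nkx intact 1 and 5.7 without Nkx intact 2, against 6.47).

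The potassium channels that hold the membrane potential during secretion were higher as well. Kcnq1 had 146 and 147 CPM in the Clu intact libraries and 1.82 and 0.691 CPM in the Nkx intact libraries, 115-fold higher (log2 fold change 6.85, SE 0.46, adjusted p = 0.00037), and its regulatory subunit gene Kcne3 was 13.1-fold higher. Kcnn4, a calcium-activated potassium channel, had 98.4 and 131 CPM in Clu intact and 3.73 and 3.95 CPM in Nkx intact, 29.7-fold higher. Atp1b1, a subunit of a cation pump, was not called (1332 and 1388 against 798 and 732 CPM, adjusted p = 0.085). A further 3 members had no count in either Nkx library. They were Cftr, the cyclic AMP-gated chloride channel (2.28 and 4.703 CPM in Clu intact), Slc26a4, the anion exchanger pendrin (7.26 and 4.89 CPM), and Atp6v0a4, a proton pump subunit (5.99 and 6.302 CPM), at least 23.5-fold, 42.1-fold and 42.1-fold higher. Ano1, Kcne3, Cftr, Slc26a4 and Atp6v0a4 were named after their values were seen. Scnn1a, a subunit of the epithelial sodium channel, was not called, and its Nkx libraries were far apart (153 and 24.5 CPM). Transport genes called higher numbered 8 with Nkx intact 2 dropped, and those called lower 0 with either Clu intact library or Nkx intact 1 dropped, 1 with Nkx intact 2 dropped and 11 with either Nkx castrate library dropped. Refitting without 1 library ended the calls on Kcne3, Cftr and Slc26a4 (whichever of the 4 libraries was left out) and Atp6v0a4 (without Nkx intact 1 or 2), with adjusted p from 0.0505 to 0.227. Limma-voom did not call Kcne3, Cftr or Atp6v0a4. The fold moved over 1.5 times for Kcnq1 (log2 fold change 7.72 without Nkx intact 1, against 6.85). For Cftr the fold was at least 15.6 with Clu intact 2 dropped. Dropping a library added the call on Atp1b1 (with either Nkx castrate library dropped) and Scnn1a (with Nkx intact 1 or either Nkx castrate library dropped), with adjusted p from 0.000433 to 0.0429.

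**Figure D4:**
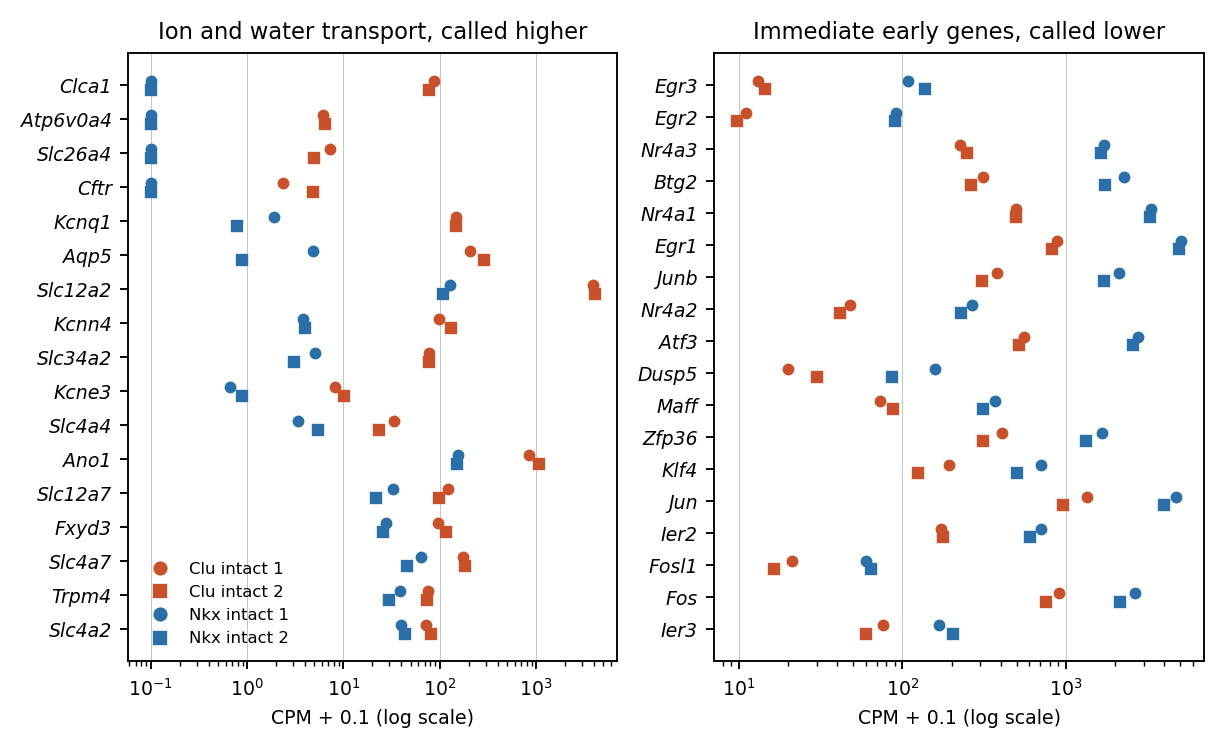
CPM + 0.1 on a log axis in each of the 4 libraries (red Clu intact, blue Nkx intact; circles replicate 1, squares replicate 2). The left panel holds transport genes called higher and the right panel the 18 with the largest fold of the 27 immediate early genes called lower, each ordered by log2 fold change. Clca1 and 3 other genes have no count in the Nkx libraries and sit at the left edge, and on the right both Nkx libraries lie to the right of both Clu libraries for every gene shown.

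Mucosal defence, glycan and protease genes were higher more often than lower. Of 25 mucosal defence genes tested, 9 were higher and 3 lower. Muc20, a membrane mucin, had 32.9 and 38.3 CPM in the Clu intact libraries and 0.383 and 0.79 CPM in the Nkx intact libraries, 59.9-fold higher (log2 fold change 5.90, SE 0.46, adjusted p = 0.000512), and Muc4, another, had 25.99 and 24.9 CPM in Clu intact and 0.191 and 0.593 CPM in Nkx intact, 63.7-fold higher. Cd59a, which shields cells from complement, had 91.5 and 40.8 CPM in Clu intact against 0.383 and 0 CPM in Nkx intact, with Clu intact 1 above Clu intact 2. Agr2, a folding factor of mucins, was not called (adjusted p = 0.133). Of 33 glycan genes, 11 were higher and 3, not reported here, were lower. Mgat3, which adds the bisecting sugar of N-glycans, had 109.8 and 119 CPM in Clu intact and 3.06 and 2.17 CPM in Nkx intact, 43.5-fold higher (log2 fold change 5.44, SE 0.46, adjusted p = 0.000662). B3gnt3, which extends mucin sugars, was 16.5-fold higher (92.6 and 112 against 7.65 and 4.74 CPM), and Galnt4, which starts them, 8.03-fold. Of 38 proteases and inhibitors, 13 were higher and none lower, against 6.29% of all genes higher. Timp4, an inhibitor of matrix metalloproteases, had 88.2 and 95.8 CPM in Clu intact and 4.59 and 5.93 CPM in Nkx intact, 17.5-fold higher. Ctse, cathepsin E, was 6.97-fold and Serpinb1a, an inhibitor of neutrophil proteases, 8.305-fold higher. Spink5, an inhibitor of kallikreins, had 153 and 135 CPM in Clu intact and 8.23 and 7.31 CPM in Nkx intact, and Tmprss4, a membrane protease, had 9.03 and 12.7 CPM in Clu intact and no count in Nkx intact (at least 73.8-fold). Mucosal defence genes called higher numbered 3 with Nkx intact 1 dropped, 4 with Nkx intact 2 dropped, 5 with either Clu intact library dropped and 14 with either Nkx castrate library dropped, and those called lower 0 with Nkx intact 2 dropped, 1 with Clu intact 1 or Nkx intact 1 dropped and 6 with either Nkx castrate library dropped. Glycan genes called higher numbered 7 with either Clu intact library or Nkx intact 1 dropped, and those called lower 0 with Clu intact 2 or Nkx intact 1 dropped, 1 with Clu intact 1 or Nkx intact 2 dropped and 6 with either Nkx castrate library dropped. Proteases and inhibitors called higher numbered 4 with Nkx intact 2 dropped, 5 with Nkx intact 1 dropped and 8 with Clu intact 2 dropped, and those called lower 5 with either Nkx castrate library dropped. Not called with 1 library fewer were Muc4 (whichever of the 4 libraries was left out), Timp4 and Spink5 (without Nkx intact 1 or 2) and Tmprss4 (without Clu intact 2), with adjusted p from 0.0777 to 0.217. The alternative limma-voom did not call Muc4 or Cd59a and DESeq2 did not call Spink5. Without 1 library the fold moved by over 1.5 times for Muc20, Muc4 and Cd59a. Without Nkx intact 2 their log2 fold changes were 6.51, 6.99 and 7.4, against 5.9, 5.99 and 8.34. That of Cd59a was 7.66 without Clu intact 1. Leaving out Nkx intact 1 leaves no Cd59a count in that group and so no fold. A call was gained for Agr2 (with either Nkx castrate library dropped), with adjusted p from 0.00957 to 0.0119.

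Most immediate early genes were lower in the Clu-marked cells. These genes, among them the AP-1, Egr and Nr4a families, are transcribed within minutes of a stimulus without new protein synthesis, through factors such as CREB and serum response factor. Of 40 genes on the list, all tested, 27 were lower and none higher, with a median log2 fold change of -1.30. Their CPM summed to 11470 and 9584 in Clu intact and 38530 and 34190 in Nkx intact. Of the 27 genes called lower, 22 had a promoter in the RefSeq table (build GRCm38.p6). In the 250 bases before the start, the core TGACG of the CREB and ATF site, searched on both strands, was found in 13 of the 22 (59.1%), against 17.9% of all 27025 promoters of that length in the table. More than 1 match was found in 6 of the 22, against 4.02% of all. A single full palindrome TGACGTCA counts as 2 matches in both shares. The AP-1 motif TGANTCA was found in none, against 6.87% of all. Of the other motifs searched, GGGNGGG, bound by KLF and SP factors, was in 16 of the 22 (72.7%), against 44.4% of all, the ETS motif CCGGAAG in 2 (7.05% of all), the forkhead motif TGTTTAC in 1 (3.09% of all), the TEAD motif ACATNCCA in 1 (3.06% of all) and the steroid receptor motif AGAACA in none (16.2% of all). Motifs were searched on both strands, and none of these letters contains another. The CREB core was added after the values were seen. The plan had named the genes called higher, those called lower and all genes tested. Fewer than 80% of each had a promoter in the table, so that motif shares over them are void and not given. The background of all promoters includes genes not tested here and was not matched for base content. List members that were not called were not searched, so these shares do not set called members apart from uncalled ones. The promoters of 4 of these genes are shown, 5′ to 3′ on the strand of the gene and ending at the base before the start, with each TGACG or its complement CGTCA in capitals, because members of the group with matches are among those whose levels follow.
Nr4a1: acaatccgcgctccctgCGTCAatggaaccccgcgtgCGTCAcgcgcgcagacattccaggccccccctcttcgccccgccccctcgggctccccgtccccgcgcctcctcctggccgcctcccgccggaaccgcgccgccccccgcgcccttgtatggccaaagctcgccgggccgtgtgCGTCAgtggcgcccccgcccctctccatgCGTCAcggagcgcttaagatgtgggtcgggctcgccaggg
Atf3: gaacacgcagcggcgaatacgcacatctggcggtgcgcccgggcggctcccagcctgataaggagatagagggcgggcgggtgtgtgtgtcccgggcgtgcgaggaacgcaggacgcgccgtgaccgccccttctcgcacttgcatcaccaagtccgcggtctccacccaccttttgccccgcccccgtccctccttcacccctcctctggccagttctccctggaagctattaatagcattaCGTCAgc
Fos: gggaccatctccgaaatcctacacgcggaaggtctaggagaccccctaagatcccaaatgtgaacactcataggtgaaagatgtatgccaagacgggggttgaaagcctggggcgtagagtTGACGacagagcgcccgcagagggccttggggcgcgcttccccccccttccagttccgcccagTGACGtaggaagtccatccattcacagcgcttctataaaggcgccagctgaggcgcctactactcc
Btg2: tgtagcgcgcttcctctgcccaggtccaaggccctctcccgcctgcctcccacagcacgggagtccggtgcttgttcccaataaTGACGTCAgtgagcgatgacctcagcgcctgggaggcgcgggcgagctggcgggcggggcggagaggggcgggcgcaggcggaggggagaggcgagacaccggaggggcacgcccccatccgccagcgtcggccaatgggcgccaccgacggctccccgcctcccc
The stretches are chr15:101266596-101266845 on the plus strand, chr1:191183334-191183583 on the minus strand, chr12:85473640-85473889 on the plus strand and chr1:134079156-134079405 on the minus strand. Nr4a1 holds 4 matches, Atf3 1, Fos 2 and Btg2 2, which overlap in the full palindrome. A match is a description of these letters only.

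Nr4a1, an orphan nuclear receptor, had 494 and 499 CPM in the Clu intact libraries and 3331 and 3259.6 CPM in the Nkx intact libraries, 6.63-fold lower (log2 fold change -2.73, SE 0.19, adjusted p = 0.000388). Btg2, an antiproliferative gene, had 311 and 265 CPM in Clu intact and 2284 and 1739.9 CPM in Nkx intact, 6.99-fold lower. Atf3, a stress-induced bZIP factor, had 557 and 519.5 CPM in Clu intact and 2763 and 2597 CPM in Nkx intact, 4.98-fold lower (log2 fold change -2.32, SE 0.18, adjusted p = 0.000513). In each case both Nkx libraries were the higher ones and the libraries of a group were close. Fos, the AP-1 partner of Jun, had 909.8 and 762 CPM in Clu intact and 2652 and 2159.8 CPM in Nkx intact, 2.88-fold lower, and Jun had 1343 and 962 CPM in Clu intact and 4751 and 3997 CPM in Nkx intact, 3.79-fold lower. The zinc finger gene Egr1 had 888 and 823 CPM in Clu intact and 5102 and 4955 CPM in Nkx intact, 5.88-fold lower (log2 fold change -2.56, SE 0.19, adjusted p = 0.000436). Its relatives Egr2 and Egr3 were 8.83-fold and 8.98-fold lower, and Nr4a3 7.103-fold lower. The heat shock genes Hspa1a and Hspa1b, on the same list, were not called, with log2 fold changes of -0.52 and -0.37, and neither was Socs3 (204 and 94.8 CPM in Clu intact and 467 and 207 CPM in Nkx intact), whose libraries varied within each group. Fos was named after its values were seen. Immediate early genes called lower numbered 14 with Clu intact 2 dropped, 15 with Nkx intact 1 dropped and 16 with Nkx intact 2 dropped. Removing 1 library ended the call on Fos (without Clu intact 2 or Nkx intact 1), with adjusted p from 0.051 to 0.0654. Calls were gained for Socs3 (with either Nkx castrate library dropped), with adjusted p from 0.0304 to 0.0389.

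Targets of YAP and TEAD and growth factor genes were lower more often than higher. Of 21 YAP and TEAD targets, 7 were lower and 2 higher. Ccn1, a matricellular protein, had 612 and 871 CPM in the Clu intact libraries and 4228 and 4362 CPM in the Nkx intact libraries, 5.79-fold lower (log2 fold change -2.53, SE 0.25, adjusted p = 0.00112), and Axl, a receptor tyrosine kinase, 54.5 and 55.1 CPM in Clu intact and 272 and 221 CPM in Nkx intact, 4.498-fold lower. Of 42 genes of the EGF, FGF and IGF pathways, 12 were lower and 5 higher. Egf, the epidermal growth factor, had 110.1 and 53.1 CPM in Clu intact and 1150.2 and 918 CPM in Nkx intact, 12.7-fold lower (log2 fold change -3.66, SE 0.46, adjusted p = 0.00283). The insulin receptor substrates Irs1 (38.2 and 24.5 against 168 and 124 CPM) and Irs2 (113 and 89.1 against 751 and 552 CPM) were lower too, as was the feedback inhibitor Spry1 (4.39-fold). Fgfr3, a receptor for fibroblast growth factors, went the other way with 189 and 167 CPM in Clu intact and 22.7 and 16.3 CPM in Nkx intact, 9.14-fold higher (log2 fold change 3.19, SE 0.25, adjusted p = 0.000512). Igf2r and Erbb3 were not called (adjusted p of 0.374 and 0.496). YAP and TEAD targets called higher numbered 0 with Clu intact 1 or Nkx intact 2 dropped and 1 with Clu intact 2 or Nkx intact 1 dropped, and those called lower 1 with Clu intact 2 or Nkx intact 1 dropped, 2 with Nkx intact 2 dropped, 3 with Clu intact 1 dropped and 11 with either Nkx castrate library dropped. Growth factor pathway genes called higher numbered 1 with Clu intact 2 dropped, 2 with Clu intact 1 or either Nkx intact library dropped and 8 with either Nkx castrate library dropped, and those called lower 5 with Nkx intact 1 dropped, 6 with Clu intact 2 dropped and 7 with Clu intact 1 dropped. With 1 library left out, the calls lost were those on Axl (whichever of the 4 libraries was left out) and Irs2 (without Clu intact 2 or Nkx intact 1), with adjusted p from 0.0563 to 0.0918. A library left out shifted the fold by over 1.5 times for Egf (log2 fold change -4.27 without Clu intact 1, against -3.66).

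Members of the Notch, Wnt and TGF-beta pathways were called in both directions. Of 26 Notch genes, 8 were higher and 2 lower. Notch3, a receptor, had 57.9 and 52.7 CPM in the Clu intact libraries and 12.2 and 7.901 CPM in the Nkx intact libraries, 5.48-fold higher, and Dtx4, a ubiquitin ligase of the pathway, had 139 and 149 CPM in Clu intact and 22.9 and 17.98 CPM in Nkx intact, 7.04-fold higher (log2 fold change 2.82, SE 0.27, adjusted p = 0.00103). The vascular members Dll4 (36.4 and 15.4 against 2.68 and 2.37 CPM) and Notch4 (36.03 and 17.5 against 3.35 and 1.98 CPM) were higher too, and, like the endothelial markers, more so in Clu intact 1 than in Clu intact 2. The target Hes1 was 2.49-fold lower, and Notch1 was not called (adjusted p = 0.155). Of 42 Wnt genes, 4 were higher and 3 lower, near the background. Wnt4, a ligand of the urogenital tract, had 172 and 177 CPM in Clu intact and 35.8 and 24.9 CPM in Nkx intact, 5.75-fold higher (log2 fold change 2.52, SE 0.25, adjusted p = 0.00115). Ctnnb1, beta-catenin, was 2.29-fold higher (703 and 780.3 against 322 and 327 CPM) and the effector Tcf7 2.58-fold lower. Of 34 TGF-beta and BMP genes, 9 were lower and 3 higher. The ligand Tgfb2 had 13.6 and 9.31 CPM in Clu intact and 47.8 and 48.5 CPM in Nkx intact, 4.197-fold lower. The effector Smad9 was 3.14-fold lower, and Ltbp1, which stores the ligand in matrix, was 3.86-fold higher. Of 26 JAK-STAT genes, 1 was higher and 3 lower (3.85% and 11.5%, against 6.29% and 5.0% of all genes). The feedback gene Cish was 2.01-fold lower. Notch genes called higher numbered 2 whichever of the 4 libraries was left out, and those called lower 1 whichever of the 4 libraries was left out and 4 with either Nkx castrate library dropped. Wnt genes called higher numbered 1 with either Nkx intact library dropped, 2 with either Clu intact library dropped, 9 with Nkx castrate 1 dropped and 10 with Nkx castrate 2 dropped, and those called lower 0 whichever of the 4 libraries was left out and 10 with either Nkx castrate library dropped. TGF-beta and BMP genes called higher numbered 0 with Clu intact 1 or either Nkx intact library dropped, and those called lower 1 with Clu intact 2 or Nkx intact 2 dropped and 2 with Clu intact 1 or Nkx intact 1 dropped. JAK-STAT genes called higher numbered 0 whichever of the 4 libraries was left out and 5 with either Nkx castrate library dropped, and those called lower 0 with Clu intact 2 or Nkx intact 1 dropped, 1 with Clu intact 1 dropped, 5 with Nkx castrate 2 dropped and 6 with Nkx castrate 1 dropped. Calls that were lost without 1 library were those on Dll4, Notch4, Hes1, Tcf7, Smad9 and Cish (whichever of the 4 libraries was left out), Ctnnb1 (without Nkx intact 1 or 2), Tgfb2 (without Clu intact 2 or either Nkx intact library) and Ltbp1 (without Clu intact 1 or either Nkx intact library), with adjusted p from 0.0502 to 0.277. The limma-voom fit did not call Dll4, Notch4 or Tgfb2, scaling to library totals alone did not call Notch4 and the 10 CPM filter did not call Notch4. Folds that moved over 1.5 times were those of Dll4 and Notch4. Without Clu intact 1 their log2 fold changes were 2.62 and 2.73, against 3.35 and 3.32. Newly called was Notch1 (with either Nkx castrate library dropped), with adjusted p from 0.0374 to 0.0412.

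Some interferon-stimulated and antigen presentation genes were called higher, though most were not called. Of 37 interferon-stimulated genes, 9 were higher and 1 lower (median 1.41), and their CPM summed to 691 and 1074 in Clu intact and 503 and 458 in Nkx intact. Oasl2, an antiviral protein, had 47.9 and 111 CPM in the Clu intact libraries and 19.9 and 17.3 CPM in the Nkx intact libraries, 4.26-fold higher. Clu intact 2 was the higher of the pair. The chemokine gene Cxcl10 was the lower member, with 7.17 and 16.4 CPM in Clu intact and 78.6 and 105 CPM in Nkx intact, 7.83-fold lower (log2 fold change -2.97, SE 0.39, adjusted p = 0.00356). Of 20 antigen presentation genes, 4 were higher and none lower. The class I heavy chain H2-D1 had 762 and 1219.5 CPM in Clu intact and 404 and 374 CPM in Nkx intact, 2.54-fold higher, H2-K1 was 1.702-fold higher, and the light chain B2m was not called (adjusted p = 0.219). Close copies of the class I genes leave their counts uncertain. Of 31 cytokine, chemokine and NF-kB genes, 5 were higher and 2 lower. Cxcl15, a chemokine of mucosal glands, had 48.5 and 42.2 CPM in Clu intact and 0.765 and 4.64 CPM in Nkx intact, and Tnfsf10, a death ligand, had 24.7 and 14.6 CPM in Clu intact and 0.574 and 1.19 CPM in Nkx intact, 16.8-fold and 22.2-fold higher. Interferon-stimulated genes called higher numbered 0 with Clu intact 2 or either Nkx intact library dropped, 5 with Clu intact 1 dropped, 19 with Nkx castrate 2 dropped and 20 with Nkx castrate 1 dropped. Antigen presentation genes called higher numbered 0 with Clu intact 2 or either Nkx intact library dropped, 1 with Clu intact 1 dropped and 11 with either Nkx castrate library dropped, and those called lower 4 with either Nkx castrate library dropped. Cytokine, chemokine and NF-kB genes called higher numbered 2 with Nkx intact 1 dropped, 3 with either Clu intact library or Nkx intact 2 dropped and 8 with either Nkx castrate library dropped, and those called lower 0 whichever of the 4 libraries was left out and 9 with either Nkx castrate library dropped. Leaving out 1 library ended the calls on Oasl2 and H2-D1 (without Clu intact 2 or either Nkx intact library), H2-K1 (whichever of the 4 libraries was left out) and Tnfsf10 (without Nkx intact 1), with adjusted p from 0.0586 to 0.263. Limma-voom did not call Tnfsf10. Without 1 library the log2 fold change moved by over 1.5-fold for Oasl2 (1.38 without Clu intact 2, against 2.09), Cxcl10 (-3.66 without Clu intact 2, against -2.97), Cxcl15 (3.3 without Nkx intact 1 and 5.88 without Nkx intact 2, against 4.07) and Tnfsf10 (5.08 without Nkx intact 2, against 4.47). Dropping a library added the call on B2m (with either Nkx castrate library dropped), with adjusted p from 0.0161 to 0.0198.

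Genes of lipid synthesis were lower more often than higher. Of 36 genes of cholesterol and fatty acid synthesis, 11 were lower and 3 higher. Fads1, a desaturase of polyunsaturated fatty acids, had 8.27 and 8.47 CPM in the Clu intact libraries and 51.8 and 50.4 CPM in the Nkx intact libraries, 6.103-fold lower (log2 fold change -2.61, SE 0.22, adjusted p = 0.000673), whereas Fasn, fatty acid synthase, was not called (adjusted p = 0.142). Of 51 xenobiotic, retinoid and glutathione genes, 10 were higher and 6 lower. The cytochrome gene Cyp2b10 had 96.2 and 82.97 CPM in Clu intact and 2.104 and 0 CPM in Nkx intact, 83.5-fold higher (log2 fold change 6.38, SE 0.84, adjusted p = 0.0037), and the glutathione transferase Gsta3, which has close copies, was 10.8-fold higher. Slc39a8, a zinc and manganese importer, had 478 and 612 CPM in Clu intact and 103 and 134 CPM in Nkx intact, 4.61-fold higher (log2 fold change 2.20, SE 0.21, adjusted p = 0.00103), while the metallothionein gene Mt1 was 3.02-fold lower. Odc1, which commits ornithine to polyamines, was 3.04-fold lower (104 and 106 against 293 and 346 CPM). Lipid synthesis genes called higher numbered 0 with Clu intact 2 or either Nkx intact library dropped, 1 with Clu intact 1 dropped, 5 with Nkx castrate 2 dropped and 6 with Nkx castrate 1 dropped, and those called lower 2 with Clu intact 1 dropped, 3 with Clu intact 2 or Nkx intact 2 dropped and 6 with Nkx intact 1 dropped. Xenobiotic, retinoid and glutathione genes called higher numbered 4 with Nkx intact 1 dropped, 5 with Nkx intact 2 dropped, 6 with Clu intact 2 dropped and 16 with Nkx castrate 1 dropped, and those called lower 3 with Clu intact 1 or either Nkx intact library dropped and 12 with either Nkx castrate library dropped. Refitting without 1 library ended the calls on Mt1 (without Nkx intact 1 or 2) and Odc1 (whichever of the 4 libraries was left out), with adjusted p from 0.0511 to 0.0795. A library left out shifted the fold by over 1.5 times for Cyp2b10. Its log2 fold change was 5.41 without Nkx intact 2, against 6.38. Leaving out Nkx intact 1 leaves no Cyp2b10 count in that group and so no fold. A call was gained for Fasn (with either Nkx castrate library dropped), with adjusted p from 0.0169 to 0.0207.

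Few genes of energy metabolism, ribosomes and protein folding were called. None of 39 nuclear genes of oxidative phosphorylation was called in edgeR, with 3 higher and 0 lower at an unadjusted p under 0.05, and DESeq2 and limma-voom called 0. Of 45 ribosomal protein genes only Rpl34 was called, with 166 and 158 CPM in the Clu intact libraries and 475 and 516 CPM in the Nkx intact libraries, 3.06-fold lower, and its many processed copies leave the count uncertain. Of 33 genes of protein folding and secretion, only Atf4, the stress-response factor, was called, with 262 and 252 CPM in Clu intact and 689.8 and 760.02 CPM in Nkx intact, 2.82-fold lower (log2 fold change -1.50, SE 0.17, adjusted p = 0.00187), and the chaperone gene Hspa5 was not (adjusted p = 0.331). Of 43 glycolysis and citrate cycle genes, 3 were higher and 2 lower (6.98% and 4.65%), near the 6.29% and 5.0% of all genes. Of 36 cell cycle genes, 4 were higher and none lower (median 1.14). Cdk6, a kinase of the early cell cycle, had 164 and 147 CPM in Clu intact and 39.6 and 29.4 CPM in Nkx intact, 4.499-fold higher, and its partner Ccnd1, cyclin D1, was 2.32-fold higher. Mki67, the proliferation marker, was not called (68.3 and 119.8 against 22 and 31.6 CPM, adjusted p = 0.0961). Of 42 matrix and basement membrane genes, 5 were higher and 7 lower. Npnt, an integrin ligand of the basement membrane, had 109 and 104 CPM in Clu intact and 9.76 and 11.5 CPM in Nkx intact, 10.04-fold higher, and Col18a1, the collagen that yields endostatin, had 141 and 158 CPM in Clu intact and 599 and 618 CPM in Nkx intact, 4.07-fold lower. Oxidative phosphorylation genes called higher numbered 1 with Nkx castrate 2 dropped and 3 with Nkx castrate 1 dropped. Ribosomal protein genes called higher numbered 1 with either Nkx castrate library dropped, and those called lower 8 with Nkx castrate 2 dropped and 9 with Nkx castrate 1 dropped. Protein folding genes called lower numbered 2 with Clu intact 2 dropped and 3 with either Nkx castrate library dropped. Glycolysis and citrate cycle genes called higher numbered 0 whichever of the 4 libraries was left out, 7 with Nkx castrate 2 dropped and 10 with Nkx castrate 1 dropped, and those called lower 0 whichever of the 4 libraries was left out and 4 with Nkx castrate 1 dropped. Cell cycle genes called higher numbered 0 with Nkx intact 2 dropped, 1 with Clu intact 2 dropped, 2 with Clu intact 1 or Nkx intact 1 dropped, 11 with Nkx castrate 2 dropped and 12 with Nkx castrate 1 dropped. Matrix genes called higher numbered 1 whichever of the 4 libraries was left out and 10 with either Nkx castrate library dropped, and those called lower 1 with Nkx intact 1 dropped, 3 with Clu intact 2 or Nkx intact 2 dropped, 4 with Clu intact 1 dropped and 11 with either Nkx castrate library dropped. Not called with 1 library fewer were Cdk6 (without Nkx intact 2) and Ccnd1 (without Clu intact 2 or either Nkx intact library), with adjusted p from 0.073 to 0.0893. Calls were gained for Mki67 (with either Nkx castrate library dropped), with adjusted p from 0.000366 to 0.000606.

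**Figure D5:**
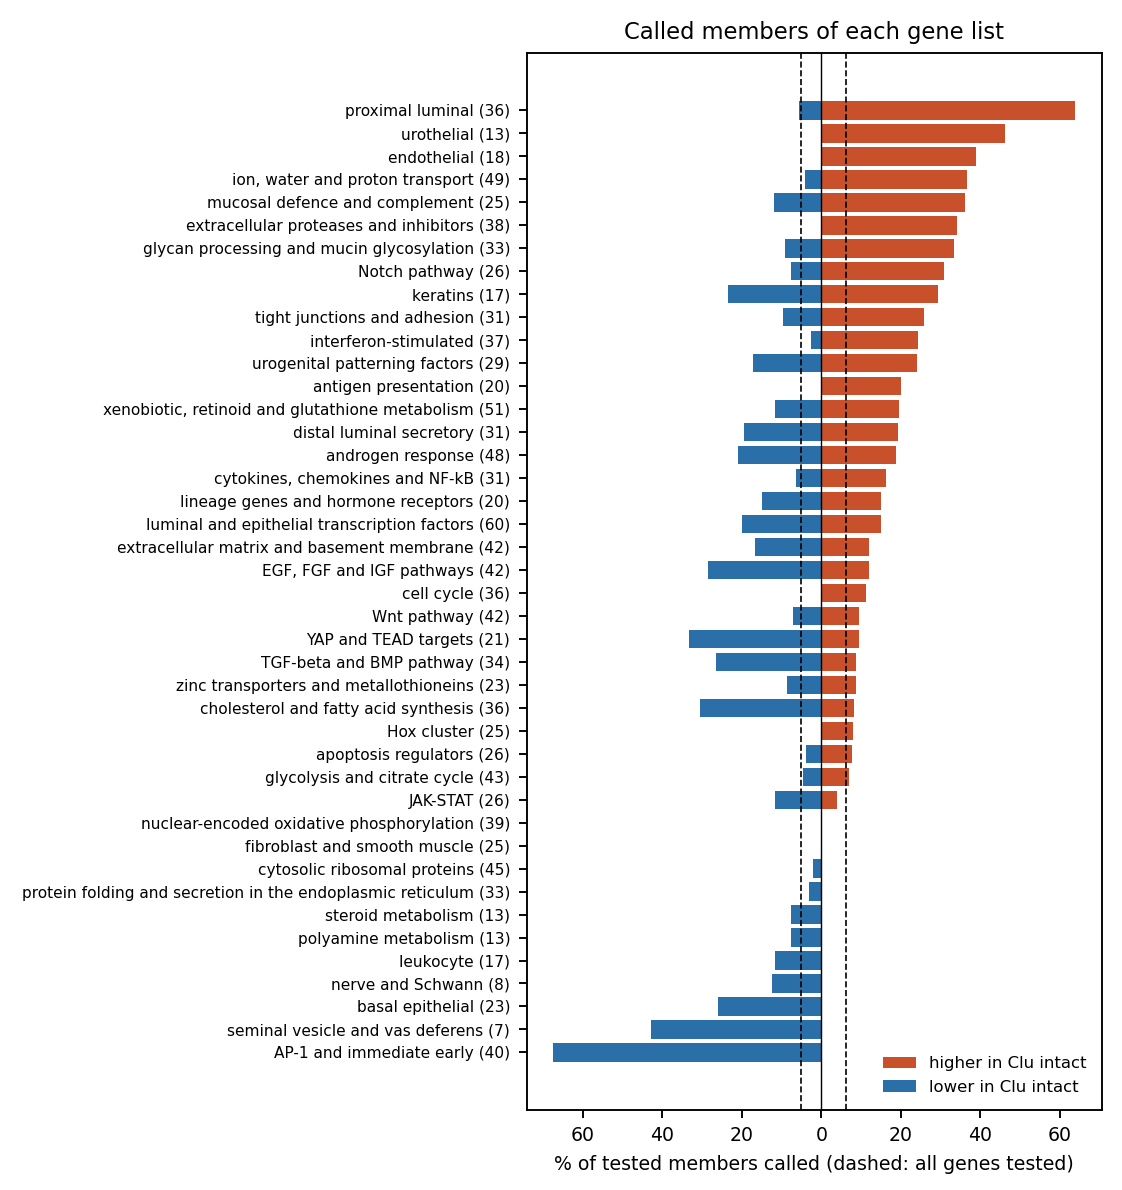
Share of the tested members of each gene list called higher (red, to the right) or lower (blue, to the left) in Clu intact, for lists with at least 5 tested members, whose number stands in brackets. Dashed lines mark the shares over all genes tested, 6.29% higher and 5.0% lower. The proximal luminal list reaches furthest to the right and the immediate early list furthest to the left. Lists share members and are not independent.

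Several of the largest changes fell outside every list. Camk2b, a subunit of the calmodulin-dependent kinase of neurons, had no count in Clu intact and 92.02 and 54.9 CPM in Nkx intact, at least 553-fold lower. The adhesion gene Pcdh9 had no count in Clu intact either and 15.02 and 17.2 CPM in Nkx intact (at least 120.5-fold lower). Fmod, a small proteoglycan that binds collagen, had 12.5 and 4.52 CPM in the Clu intact libraries and 272 and 292 CPM in the Nkx intact libraries, 32.9-fold lower (log2 fold change -5.04, SE 0.44, adjusted p = 0.000749). Stbd1, which binds glycogen, had 1.86 and 7.15 CPM in Clu intact and 86.7 and 87.7 CPM in Nkx intact, and Ms4a5, a membrane protein, had 1.94 and 7.05 CPM in Clu intact and 68.4 and 123 CPM in Nkx intact, both lower in each Clu library, with Clu intact 2 above Clu intact 1. Ptprq, a receptor phosphatase, was 88.5-fold and Mapk4, an atypical kinase, 37.3-fold lower. In the other direction, Vsig1, an adhesion protein of gastric epithelium, had 18.8 and 20.5 CPM in Clu intact and no count in Nkx intact (at least 134-fold higher). Msln, mesothelin, had 24.3 and 28.97 CPM in Clu intact, and Ern2, an endoplasmic reticulum stress sensor of mucous epithelia, 13.1 and 11.01 CPM. Neither had a count in Nkx intact, so that they were at least 182-fold and 82.99-fold higher. Myh7, a myosin of heart and slow muscle, had 30.4 and 33.5 CPM in Clu intact and 1 count in Nkx intact, a ratio of 655 (95% counting interval 117 to 25920). Ahnak, a giant scaffold protein, had 5484 and 5099 CPM in Clu intact and 1469 and 1341 CPM in Nkx intact, 3.77-fold higher. Prdx6, a peroxiredoxin, had 1061 and 693 CPM in Clu intact and 2304 and 2668 CPM in Nkx intact, 2.83-fold lower. Removing 1 library ended the calls on Msln and Ahnak (without Nkx intact 1 or 2), Ern2 (without Clu intact 1 or either Nkx intact library) and Myh7 and Prdx6 (without Clu intact 2 or either Nkx intact library), with adjusted p from 0.0526 to 0.142. The alternative limma-voom did not call Camk2b or Myh7. Folds that moved over 1.5 times were those of Fmod, Stbd1 and Ms4a5. Without Clu intact 1 their log2 fold changes were -5.95, -3.59 and -3.75, against -5.04, -4.29 and -4.42. Without Clu intact 2 Stbd1 stood at -5.53 and Ms4a5 at -5.6. For Myh7 the fold was at least 108 with Nkx intact 1 dropped and a ratio of 333 (interval 59.6 to 13170) with Nkx intact 2 dropped.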

How the data were processed

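RNA was sequenced from sorted prostate epithelial cells of 6 libraries, 2 each of Clu intact, Nkx intact and Nkx castrate, grouped by their labels. The authors deposited 1 table of raw read counts per gene for 24498 genes, of which 4599 have no count in any library. STAR 2.7.9a, FastQC 0.11.9, featureCounts of Subread 2.0.1 and the GRCm39 build are listed in the submitters' processing notes. Not given in the sources used here are how reads with several matches were counted, whether strand was used and which annotation release served, so genes with near-identical copies or overlapping neighbours have uncertain counts.

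From the deposited counts, genes were kept by edgeR's filterByExpr, scaled by TMM and fitted with edgeR 4.0.16 (R 4.3.3) by the quasi-likelihood F-test. The model had 1 mean for each of the 3 groups over all 6 libraries, which left 3 residual degrees of freedom, with 4.863 prior degrees of freedom and a biological coefficient of variation of 33.69%. Fold changes are Clu intact over Nkx intact. P-values are 2-sided and were adjusted by the Benjamini-Hochberg method over all 13846 genes tested. CPM values come from the TMM-scaled counts. For a gene without a count in a group, the fold is a bound against 3 counts over that group's 2 libraries, and for 1 to 3 counts a ratio with an exact 95% interval is given. Both cover counting error only. Leaving out a library of a group without counts lowers the bound by construction and is not given gene by gene. The scripts were tested on simulated data.

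Genes were named by a rule. It took the 15 called genes with the largest log2 fold change in each direction, with at least 10 CPM on average in the higher group and no overlap, up to 6 called and 2 uncalled members of each gene list, markers of the cell types, and the 10 called genes in each direction with the largest difference in CPM. The text gives a selection of these, and some genes that met the rule are not reported here. Members, lists and markers were chosen with earlier results of these data known, and no list is independent support. Promoters are the 250 bases before the start from RefSeq tables on GRCm38.p6, matched by symbol for 10687 of the 13846 genes tested (77.2%), and no coordinates were moved between builds. Alternatives covered scaling, filters, the libraries in the fit, a replicate block, a 2-fold minimum, DESeq2 1.42.0, limma-voom (limma 3.58.1) and each library left out.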

Additional observations from a re-analysis of the deposited data

How the results depend on the processing

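The main counts were 871 genes higher and 692 lower. They rose to 1467 and 1198 with no filter, to 1761 and 1548 with only the 4 libraries compared, and to 1320 and 1137 with DESeq2. Limma-voom gave 669 and 550, and a test against a 2-fold minimum 271 and 139. With each library left out, edgeR called between 214 and 1790 genes higher and between 157 and 1561 lower. The lowest counts came without Nkx intact 2 for higher and Nkx intact 1 for lower, and the highest without Nkx castrate 1. RLE scaling, library totals alone, ribosomal RNA and the 20 most abundant genes left out, and a 10 CPM filter each gave counts within 1.5 times of the main ones. The fit without ribosomal RNA and those 20 genes kept 98.7% of the main calls. With replicate number as a block, edgeR called 1081 genes higher and 883 lower, and with the block and only the groups compared 2224 and 2017. The labels do not link libraries of the same number, and the deviations of same-numbered libraries correlated at 0.071 across genes. None of the calls turned in direction in any of these fits. Of the 139 called genes named, limma-voom kept 120, the 2-fold minimum 93, and fits without Clu intact 1, Clu intact 2, Nkx intact 1 and Nkx intact 2 kept 105, 96, 79 and 81. Of the 31 named genes that were not called, 18 were called without Nkx castrate 1, 16 without Nkx castrate 2, 16 with no filter, 7 with DESeq2, 4 with the replicate block and 2 with limma-voom, and of the 30 that could be tested with only the groups compared, 15 were called there and 24 with the block as well, so that a gene not called here may still differ. Col1a1, which was not called, had log2 fold changes from -0.019 (without Clu intact 2) to 0.125 (without Clu intact 1), and -0.015 without Nkx intact 2. Upk3a, also not called, had at most 6 counts in each of the groups compared. Its log2 fold change ranged from -4.915 (without Clu intact 1) to 4.27 (without Nkx intact 1), with 0.222 without Clu intact 2. Apart from the values without Clu intact 1, these have the opposite sign to those from all libraries. The cause of these shifts was not tested. When a library is left out, the remaining library of its group is assumed to vary like the other groups. With 2 libraries a group, the spread rests on few degrees of freedom, and differences near 2-fold were often not called. Genes under about 1 CPM rest on few counts, and their folds carry wide counting error.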
